A study of Mus musculus with 3072 samples.

Results

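The genes described here move iron into microglia, store it, release it and set the balance between these steps: Tfrc, Slc11a2 and Slc11a1 for uptake and transport, Fth1 and Ftl1 for storage, Slc40a1 for export, Hmox1 for the breakdown of haem, and Ireb2 and Aco1 for control. They were taken by name from the count table, 9 of its 29474 genes, and all 9 had reads in every group. Microglia were sorted from the brains of male mice as single cells positive for CD11b and negative for the dead-cell dye DAPI. Their RNA was copied with a modified SmartSeq2 protocol, which reads whole transcripts and carries no molecular tags, so each count is a read and not a molecule. Each sample is 1 well.

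The mice carried the APPswe/PS1dE9 transgenes (APP/PS1), which make amyloid accumulate in the brain, or did not (C57BL/6), and either kept Apoe or were homozygous nulls for it (ApoeKO), the gene for the main lipid carrier of the brain. The 6 groups with counts here were APP/PS1 cortex and hippocampus at 17 months, APP/PS1-ApoeKO cortex and hippocampus at 18 months, and C57BL/6 and C57BL/6-ApoeKO cortex at 18 months. The 18-month wells of APP/PS1 were not analysed here, so Apoe loss with amyloid was read against mice 1 month younger, and amyloid with Apoe set 17-month APP/PS1 cortex against 18-month C57BL/6 cortex. The ApoeKO strain was a separate C57BL/6 breeding line crossed in, and all strains came from another laboratory. The labels name no animals. All cells of a group were therefore treated as 1 sample, and no p-value can be given for any difference between groups. Lanes are the sequencing lanes of the labels. In every group 1 lane holds the wells titled plates 1 and 2 and the other those of plates 3 and 4, so lanes of a group differ in their cells, and since no animals are named it is not known whether they differ only technically. APP/PS1 cortex and hippocampus shared lanes 41 and 42, both C57BL/6 groups shared lanes 37 and 38, APP/PS1-ApoeKO hippocampus had lanes 35 and 36, and APP/PS1-ApoeKO cortex had lanes 33 and 34. Except for C57BL/6-ApoeKO against C57BL/6 and APP/PS1 hippocampus against cortex, lane and group cannot be told apart in any comparison below.

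The comparisons used 1713 cells with between 74767907 and 241536311 reads a group. The labels give no depth for the APP/PS1-ApoeKO cortex cells of lane 33. They were left out of the comparisons of groups. There Fth1 stood at 1814 RPM, Ftl1 at 535 RPM, Slc11a1 at 331.5 RPM, Slc40a1 at 242.7 RPM and Ireb2 at 46 RPM, and the other 4 genes have their lane 33 values beside their results. The deleted gene followed the labels: Apoe ranged over lanes from 10557 to 15952 RPM (reads scaled to 1000000 reads a group) in APP/PS1, from 313.1 to 636.9 RPM in C57BL/6 and from 0 to 4.12 RPM in the ApoeKO groups, lane 33 included. The microglial markers Tmem119, P2ry12, Csf1r, Cx3cr1, C1qa, Aif1 and Sall1 summed to between 31298 and 36843 RPM over groups, against 128.2 to 204.3 RPM for oligodendrocyte markers and at most 31.6 RPM for astrocyte, 31.3 RPM for B cell, 28.7 RPM for endothelial, 28.6 RPM for monocyte, 16.5 RPM for neuron, 9.54 RPM for border-associated macrophage and 2.89 RPM for erythroid markers.

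Cells take up transferrin-bound iron through the transferrin receptor, Tfrc, and the divalent metal transporter Slc11a2 carries iron out of the endosome. Ferritin, a shell of heavy (Fth1) and light (Ftl1) chains, holds iron in a safe form, and ferroportin (Slc40a1) is the exporter. The proteins made from Aco1 and Ireb2 bind hairpins called iron-responsive elements when iron is scarce, which protects Tfrc mRNA from decay and blocks translation of ferritin and ferroportin mRNA, so that Tfrc mRNA reports on iron supply more directly than ferritin mRNA does. In microglia this system is studied because these cells gather iron around plaques.

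On GRCm38, by GENCODE M21, Tfrc lies at chr16:32608920-32632794, Slc11a2 at chr15:100387898-100425072 and Slc11a1 at chr1:74375195-74386062. Fth1 lies at chr19:9980598-9985098, Ftl1 at chr7:45457944-45459884 and Slc40a1 at chr1:45908068-45926523. Hmox1 lies at chr8:75093621-75100589, Ireb2 at chr9:54863789-54912530 and Aco1 at chr4:40143081-40198338.

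These hairpins, the iron-responsive elements, are the control sequence that sets Tfrc apart from the storage and export genes, and are shown for that reason. The letters searched were C, then 5 bases of any kind, then the loop CAGTGN, then 5 bases that pair with the first 5. G with T counted as a pair. The search covered the transcript strand only, in the untranslated regions of GENCODE M21 transcripts on GRCm38. Capitals mark the 6-base loop. Tfrc held 4 matches, all in its 3′ UTR (chr16, plus strand), and Fth1 (chr19, plus strand), Ftl1 (chr7, minus strand) and Slc40a1 (chr1, minus strand) held 1 each, in the 5′ UTR.
Tfrc, chr16:32631220-32631247: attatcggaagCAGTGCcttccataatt
Tfrc, chr16:32631599-32631626: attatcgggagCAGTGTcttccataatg
Tfrc, chr16:32631664-32631691: tatatcggagaCAGTGAtctccatatgt
Tfrc, chr16:32631711-32631738: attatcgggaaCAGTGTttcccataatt
Fth1, chr19:9982733-9982760: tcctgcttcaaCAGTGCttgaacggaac
Ftl1, chr7:45459779-45459806: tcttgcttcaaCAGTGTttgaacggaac
Slc40a1, chr1:45925465-45925492: aacttcagctaCAGTGTtagctaagttt

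A match is a description of letters and not proof of a working element. Over all genes, 0.133% of 21087 held a match in a 5′ UTR and 0.587% of 21806 in a 3′ UTR. The other 5 genes held none, which says only that these letters are not in their untranslated regions.

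Per length of exon, the ferritin chains were the highest of the 9 genes in every group. Fth1 lay between 435 and 603 RPM per kilobase over groups and Ftl1 between 298.1 and 390.2. Slc11a1 followed with 99.7 to 136.3 RPM per kilobase. Slc40a1 was at 26 to 37.2 and Hmox1 at 15.9 to 38.7, in an order that differed between groups. Hmox1 was the higher in APP/PS1 cortex (37.6 against 27.2) and APP/PS1 hippocampus (38.7 against 35.7), and the lower elsewhere. Slc11a2, Aco1 and Ireb2 were low, at 5.0 to 8.8, 4.0 to 11 and 3.3 to 6.7 RPM per kilobase. Tfrc was the lowest of all in the 4 groups other than the APP/PS1-ApoeKO tissues, at 1.31 to 2.00 RPM per kilobase, and reached 90.2 in APP/PS1-ApoeKO cortex and 23.2 in APP/PS1-ApoeKO hippocampus. Single-cell values were uneven: Fth1 had reads in 97.1% to 99.4% of cells, Slc11a1 in 48.3% to 58.5%, Ireb2 in 25.9% to 35.5% and Aco1 in 8.10% to 11.8%.

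**Figure D1:**
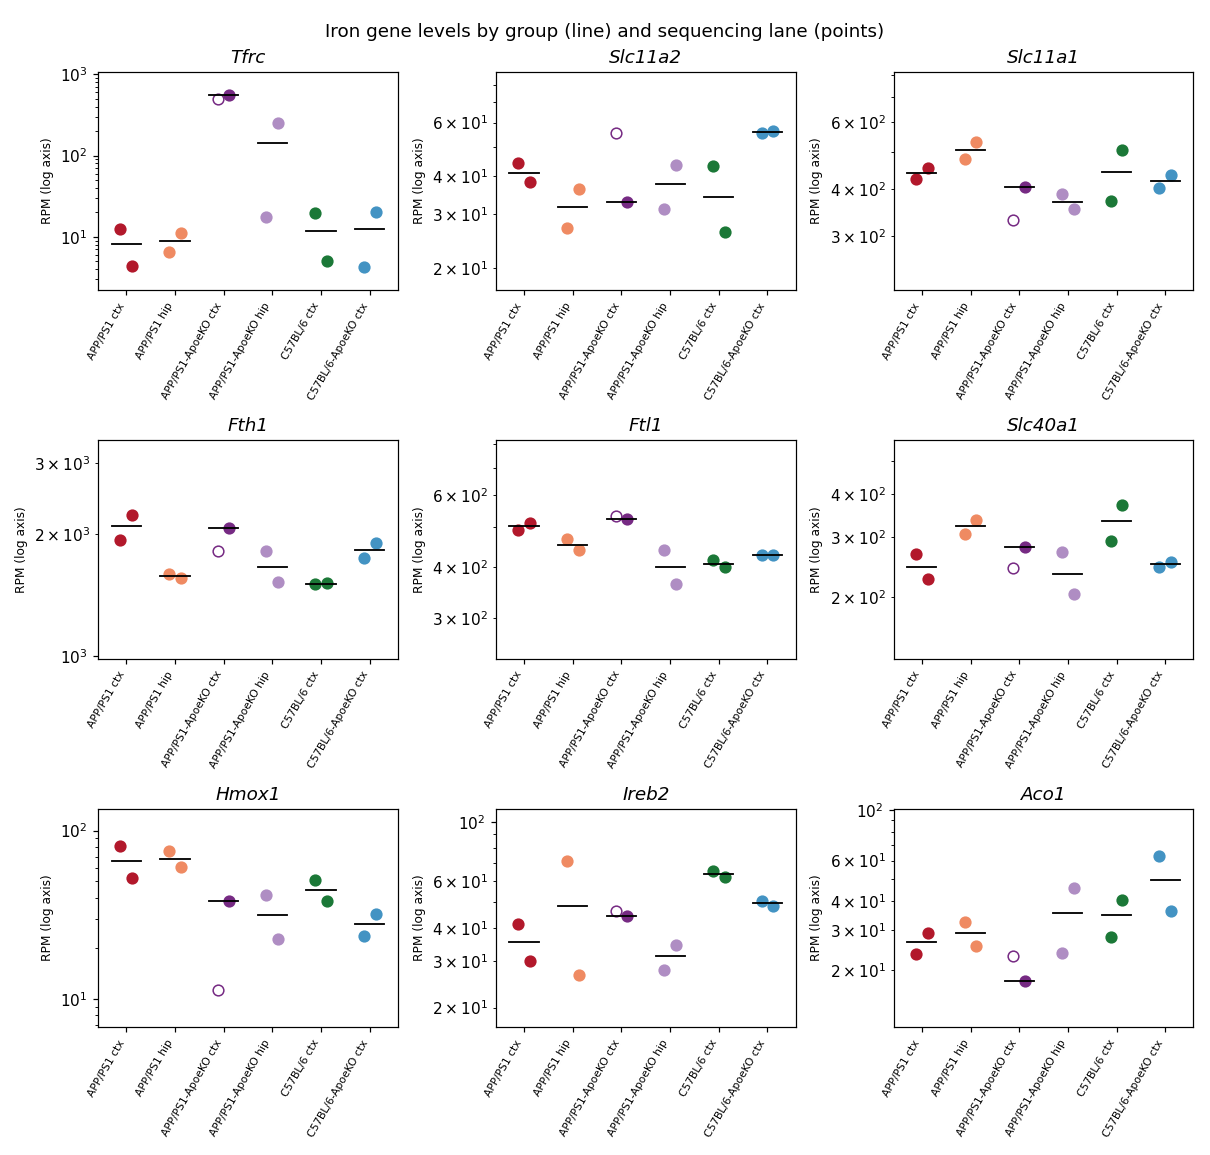
Level of each of the 9 genes (RPM, log axis, scale set per gene) in the 6 groups; points are sequencing lanes, the black line is the group, and the open point is lane 33, whose cells were not used in the comparisons of groups. Tfrc stands at 495 and 558 RPM in both lanes of APP/PS1-ApoeKO cortex and at 4.22 to 20.2 RPM in the lanes of the APP/PS1 and C57BL/6 groups.

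A difference is called 2-fold apart below when the RPM ratio, with 0.5 RPM added to each side, reached 2 and 1 of the groups had 20 RPM or more of the gene, read in 10% or more of its cells. Ratios are given with exact 95% intervals that cover counting error only, and since reads are not independent molecules the true intervals are wider. As a yardstick, the lanes of 1 group were set against each other. Among all genes that passed the filter, 7.43% were 2-fold apart between the lanes of APP/PS1 cortex, 9.59% in APP/PS1 hippocampus, 7.45% in APP/PS1-ApoeKO cortex, 7.42% in APP/PS1-ApoeKO hippocampus, 7.45% in C57BL/6 and 8.13% in C57BL/6-ApoeKO. Of the 9 genes, Ireb2 was 2-fold apart between the lanes of APP/PS1 hippocampus (71.1 and 26.6 RPM) and Tfrc between those of APP/PS1-ApoeKO hippocampus (17.6 and 250.97 RPM), and none in the other 4 groups. Shares of genes 2-fold apart between groups, given below, are of about this size or smaller except for Apoe loss in amyloid cortex. Below, lanes of 2 groups are at times said not to overlap, or to lie all on 1 side. The share of all genes for which this holds was not counted, so it is a description only. For Apoe loss in amyloid cortex it held even for Ftl1, at a ratio of 1.04.

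Tfrc, the transferrin receptor, was the gene with the widest range. It stood at 8.13 RPM in APP/PS1 cortex, 8.88 RPM in APP/PS1 hippocampus, 11.9 RPM in C57BL/6, 12.4 RPM in C57BL/6-ApoeKO, 143.6 RPM in APP/PS1-ApoeKO hippocampus and 558 RPM in APP/PS1-ApoeKO cortex. The last value comes from lane 34, and lane 33 of the same tissue stood at 495 RPM. In the 4 other groups, lanes ran from 4.22 to 20.2 RPM and reads came from 9 to 12 cells a group, 3.30% to 3.68% of cells. In APP/PS1-ApoeKO cortex 39 cells had Tfrc reads, 23.1% of those used (exact 95% binomial interval 17.0% to 30.2%), and 21.3% still did after each cell was thinned to 100000 reads. The ratio to APP/PS1 cortex was 68.6-fold (65.2 to 72.3) and that to C57BL/6-ApoeKO cortex 45.1-fold (43.3 to 47).

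These Tfrc reads were not spread over the plates. The titles of the wells read as a plate number, a row letter and a column number, and each group has 4 titled plates. In APP/PS1-ApoeKO cortex, over both lanes, 73 cells had Tfrc reads, 21.9% of all, and 62 of these lay in the outer rows A and H. All 12 cells of row A of titled plate 1 had them, as did all 10 cells of row H in each of titled plates 2, 3 and 4. These 42 cells held 70063 of the group's 76384 Tfrc reads, 91.7%, at 3900 RPM together, and single cells ran from 19.7 to 13342 RPM with a median of 3491 RPM. By row the level was 1446 RPM in row A of plate 1, and 5326, 7114 and 3168 RPM in row H of plates 2, 3 and 4.

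The other wells of rows A and H held fewer reads: 20 of 43 cells had any, at 231.4 RPM together, and the highest of them, in row H of plate 1, reached 12011 RPM. In rows B to G, 11 cells had Tfrc reads, 4.42% of the cells there (2.23% to 7.77%), at 13.2 RPM over both lanes, beside 6.35 to 11.5 RPM and 3.32% to 3.83% of cells in rows B to G of the APP/PS1 and C57BL/6 groups. In those 4 groups rows A and H showed no such pattern, with 1 or 2 cells with Tfrc reads in each row. The pattern was seen in both lanes: the 42 wells stood at 3102 RPM in lane 33 and 4843 RPM in lane 34, against 74.1 and 27.8 RPM in the group's other wells.

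**Figure D2:**
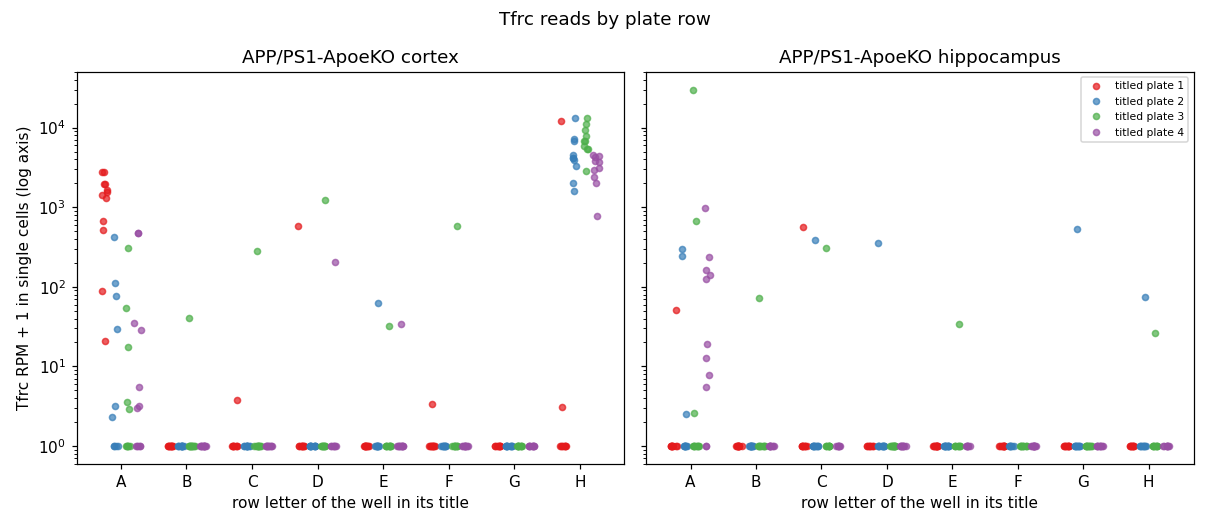
Tfrc level of single cells (RPM + 1, log axis) by the row letter in the well's title in APP/PS1-ApoeKO cortex (left, both lanes) and hippocampus (right); 1 point is 1 cell, coloured by titled plate. In cortex, row A of plate 1 and row H of plates 2, 3 and 4 hold 42 cells, all with reads, and in rows B to G 4.42% of cells have reads.

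APP/PS1-ApoeKO hippocampus also had its Tfrc reads in few wells. A single cell, in row A and column 4 of titled plate 3, held 19220 of the group's 21766 reads (88.3%), and without it the group stood at 16.9 RPM. Row A held 16 of the 25 cells with reads, among 44 cells in that row, and 9 of 11 in row A of plate 4, whose level was 111.7 RPM. Rows B to G had reads in 7 cells, 2.92% (1.18% to 5.92%), at 10.8 RPM. With rows B to G alone in every group, the log2 ratio of Tfrc was 0.97 for Apoe loss in amyloid cortex (6.02 with all wells), 0.72 in hippocampus (3.94) and 0.89 for amyloid without Apoe (5.44). The remaining cortex reads of rows B to G in lane 34 came mainly from 1 cell, without which they fell from 20.9 to 8.62 RPM.

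Depth was close in the 42 wells and in rows B to G. The 42 cells had a median of 439428 reads and 2124 genes, and the cells of rows B to G had 424607 reads and 2234 genes. The other wells of rows A and H were deeper, with 505372 reads and 2238 genes. Fth1 was at 2066 RPM in the 42 wells and 1925 RPM in rows B to G, and Slc40a1, the exporter, at 251.3 and 257.8 RPM. Ftl1, the light chain, was at 863 RPM in the 42 wells and 492 RPM in rows B to G, with single-cell medians of 391 and 420 RPM. Hmox1 was at 40.5 RPM in the 42 wells, read in 16.7% of cells, and 23.1 RPM in rows B to G, read in 5.62%. Slc11a2 was at 16.8 RPM in the 42 wells and 53.4 RPM in rows B to G. It was read in 4 of the 42 cells, 9.52% (2.66% to 22.6%), and in 36 cells of rows B to G, 14.5% (10.3% to 19.4%). The other wells of rows A and H were also low for it, at 18.2 RPM. Aco1 had a read in 1 of the 42 cells and in 18 cells of rows B to G, 7.23%. Erythroid markers, of a cell type rich in Tfrc, summed to 0.558 RPM in APP/PS1 cortex, 0.00641 RPM in APP/PS1 hippocampus, 2.89 RPM in APP/PS1-ApoeKO cortex, the highest, 0.877 RPM in APP/PS1-ApoeKO hippocampus, 2.52 RPM in C57BL/6 and 0.775 RPM in C57BL/6-ApoeKO. Of the 4 in the table, Alas2 alone had reads in APP/PS1-ApoeKO cortex, and Hbb-bs and Hba-a1 had none in any group. In the 42 wells all 4 had 0 reads.

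Reads counted for 1 other iron gene lay mostly in the same wells. Tfr2, a second transferrin receptor best known from liver and erythroid cells, had reads in 26 of the 42 cells, 1 of 43 other cells of rows A and H and 1 cell of rows B to G. Its level was low, 6.01 RPM in the 42 wells, and these held 89.3% of the group's reads. In APP/PS1-ApoeKO hippocampus all Tfr2 reads lay in row A, most of them in the cell with 19220 Tfrc reads. The 1 cortex cell of rows B to G with Tfr2 reads had no Tfrc reads. Whether reads of Tfrc were counted as Tfr2 was not tested, so these reads do not show that Tfr2 was expressed. Over all 29474 genes, the gap in the share of cells with reads between the 42 wells and the rest, taken as the smaller of the 2 lanes, was 87.2 percentage points for Tfrc and 53.8 for Tfr2, the first and second of the ranking, and 25.9 for Fnip1, the next. The wells were picked after Tfrc values were seen, so for Tfrc this is a description with no test. What the wells of these rows shared at collection, and whether it bears on Tfrc, was not tested.

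Slc11a2, which moves iron out of endosomes, was at 41 RPM in APP/PS1 cortex, 31.8 RPM in APP/PS1 hippocampus, 32.8 RPM in APP/PS1-ApoeKO cortex, 37.8 RPM in APP/PS1-ApoeKO hippocampus, 34.2 RPM in C57BL/6 and 55.9 RPM in C57BL/6-ApoeKO. The C57BL/6-ApoeKO lanes (55.4 and 56.5 RPM) lay above both C57BL/6 lanes (43.2 and 26.3 RPM), a ratio of 1.63 (1.59 to 1.68). The unused lane 33 stood at 55.2 RPM, against 32.8 RPM in lane 34, a spread about as wide as that between groups. The gene was read in 9.20% to 15.1% of cells. It shares exon bases with Gm5475 on the opposite strand, and since no source used here says whether counting used strand, reads of this pair cannot be told apart.

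Slc11a1 is the phagosomal metal pump of macrophages. It stood at 440 RPM in APP/PS1 cortex, 505 RPM in APP/PS1 hippocampus, 405 RPM in APP/PS1-ApoeKO cortex, 369.3 RPM in APP/PS1-ApoeKO hippocampus, 443 RPM in C57BL/6 and 418 RPM in C57BL/6-ApoeKO. The group range was 1.37-fold, and the lanes of C57BL/6 alone were at 371.7 and 506.3 RPM, so most neighbours in this order did not differ beyond their lanes. In hippocampus both APP/PS1-ApoeKO lanes (388.6 and 352.9 RPM) lay below both APP/PS1 lanes (479 and 530 RPM), a ratio of 0.732 (0.724 to 0.740).

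The ferritin chains lay within 2-fold of each other between all groups. Fth1, the heavy chain, whose ferroxidase activity loads iron into the shell, was at 2091 RPM in APP/PS1 cortex, 1575 RPM in APP/PS1 hippocampus, 2066 RPM in APP/PS1-ApoeKO cortex, 1660 RPM in APP/PS1-ApoeKO hippocampus, 1508 RPM in C57BL/6 and 1823 RPM in C57BL/6-ApoeKO. Ftl1, the light chain, was at 504, 453, 523, 399, 407 and 427 RPM in that order. Both chains were lower in hippocampus than in cortex by group level, though for Fth1 lane 33 of APP/PS1-ApoeKO cortex, at 1814 RPM, lay just below lane 35 of the hippocampus, at 1818 RPM. For Fth1 the ratio was 0.753 (0.749 to 0.757) in APP/PS1 and 0.803 (0.798 to 0.808) in APP/PS1-ApoeKO, and for Ftl1 it was 0.900 (0.892 to 0.909) and 0.764 (0.754 to 0.774).

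With amyloid and Apoe both chains were higher than in C57BL/6 cortex. Fth1 lanes were at 1936 and 2229 RPM in APP/PS1 and 1504 and 1511 RPM in C57BL/6, a ratio of 1.39 (1.38 to 1.39). Ftl1 lanes were at 494 and 512 RPM against 417 and 399 RPM, a ratio of 1.24 (1.23 to 1.25). Amyloid cannot be told apart here from the lanes or from the age, which differ between these groups too. The lanes did not overlap for either chain, and the sign held in each of the 22 settings tried. Without Apoe the ratios for amyloid were 1.13 (1.13 to 1.14) for Fth1 and 1.22 (1.21 to 1.24) for Ftl1. The Fth1 sign turned in 1 of the 18 settings tried there, and the Ftl1 sign in 0 of 18. Whether the 2 amyloid ratios differ was not tested.

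In single cells the order of Fth1 was not that of the group levels. The median cell was at 1812 RPM in APP/PS1 cortex, 1225 RPM in APP/PS1 hippocampus and 1308 RPM in C57BL/6, and the 95th percentile at 4859, 3867 and 3523 RPM. By its median cell APP/PS1 hippocampus lay below C57BL/6, although its group level was higher. The ranges overlap over most of their length. By reads the heavy chain was at 3.47 to 4.27 times the light chain. Per length of exon it was at 1.34 to 1.65 times. That length joins all annotated exons of a gene, 3469 bases for Fth1 and 1340 for Ftl1. Which of these exons were used in the cells was not tested, so the ratio per length depends on the annotation. Reads of the annotated copies were few, 0.633 to 1.08 RPM for the Ftl copies and 0.0828 to 1.99 RPM for the Fth copies, though reads shared between a gene and a near-identical copy could be counted in either way. Ftl1 also shares exon bases with Gm22133 and Gm10252.

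**Figure D3:**
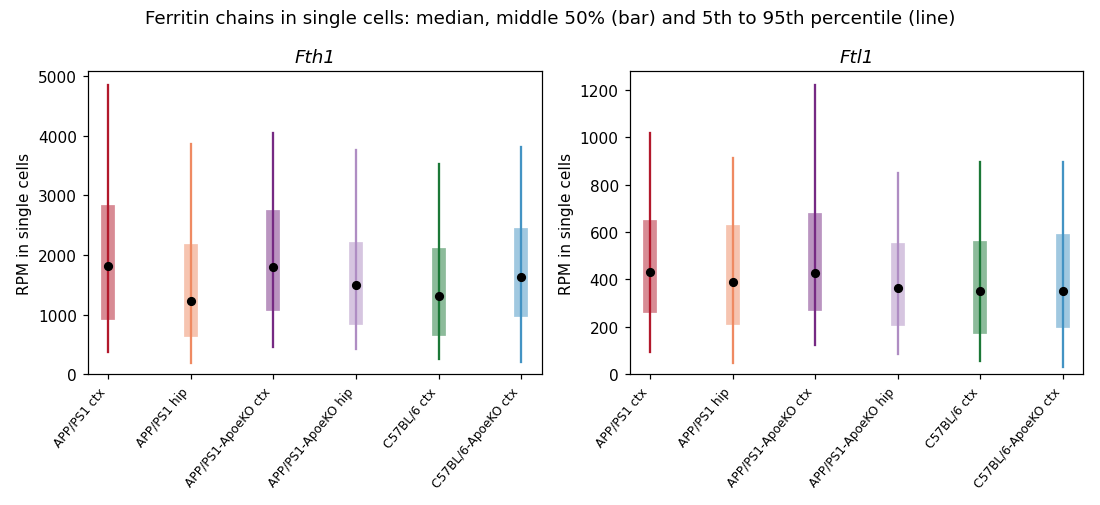
Fth1 (left) and Ftl1 (right) in single cells of the 6 groups, in RPM; the point is the median cell, the bar the middle 50% and the line the 5th to 95th percentile. The Fth1 median is 1812 RPM in APP/PS1 cortex against 1308 RPM in C57BL/6, with ranges that overlap widely.

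Slc40a1, ferroportin, the only known iron exporter of mammalian cells, was highest in C57BL/6 cortex at 334.5 RPM. It stood at 321.6 RPM in APP/PS1 hippocampus, 280.6 RPM in APP/PS1-ApoeKO cortex, 248.8 RPM in C57BL/6-ApoeKO and 244.5 RPM in APP/PS1 cortex, and was lowest in APP/PS1-ApoeKO hippocampus at 233.97 RPM. Against C57BL/6, whose lanes were at 291.5 and 372.4 RPM, both APP/PS1 cortex (266.1 and 225.2 RPM) and C57BL/6-ApoeKO (244.2 and 253.3 RPM) lay lower in both lanes. The ratios were 0.731 (0.723 to 0.739) and 0.744 (0.736 to 0.752), and both share the C57BL/6 cells. In hippocampus Apoe loss gave 0.728 (0.718 to 0.737), again with no lane overlap. In amyloid cortex it gave 1.15 (1.13 to 1.17), the opposite direction, whose sign turned in 3 of 18 settings. In C57BL/6 57.4% of cells had a read and in C57BL/6-ApoeKO 48.2%.

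Hmox1, haem oxygenase, frees iron from haem and is a stress-induced gene. It was at 65.9 RPM in APP/PS1 cortex, 67.7 RPM in APP/PS1 hippocampus, 38.4 RPM in APP/PS1-ApoeKO cortex, 31.4 RPM in APP/PS1-ApoeKO hippocampus, 44.2 RPM in C57BL/6 and 27.9 RPM in C57BL/6-ApoeKO. The level was lower without Apoe in each of the 3 comparisons, at ratios of 0.582 (0.559 to 0.606) in amyloid cortex, 0.464 (0.448 to 0.480) in amyloid hippocampus and 0.632 (0.612 to 0.653) without amyloid. The lanes used did not overlap in any of them, a description as above, though amyloid cortex had only 1 such lane without Apoe. For hippocampus they were 41.4 and 22.9 RPM against 75.2 and 60.5 RPM, and without amyloid 23.6 and 32.1 RPM against 50.7 and 38.4 RPM. Without amyloid Hmox1 did not pass the filter, with reads in 6.07% of C57BL/6-ApoeKO and 9.51% of C57BL/6 cells.

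The sign of these 3 Hmox1 ratios held in all 18, 22 and 22 settings. Their size did not hold: log2 ratios ran from -2.50 to -0.48 in amyloid cortex, from -1.39 to -0.79 in hippocampus and from -1.09 to -0.06 without amyloid. Lane 33 of APP/PS1-ApoeKO cortex was at 11.3 RPM, below lane 34 at 38.4 RPM. The reads came from few cells, 17.7% in APP/PS1 cortex and 6.07% in C57BL/6-ApoeKO, and at 100000 reads a cell these shares were 16.7% and 5.84%. The hippocampal difference was no longer 2-fold without plate number 3 of APP/PS1-ApoeKO, with each cell weighted alike, after thinning, or in rows B to G alone. With amyloid, where Apoe was kept, Hmox1 was 1.49-fold higher (1.45 to 1.53) than in C57BL/6.

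**Figure D4:**
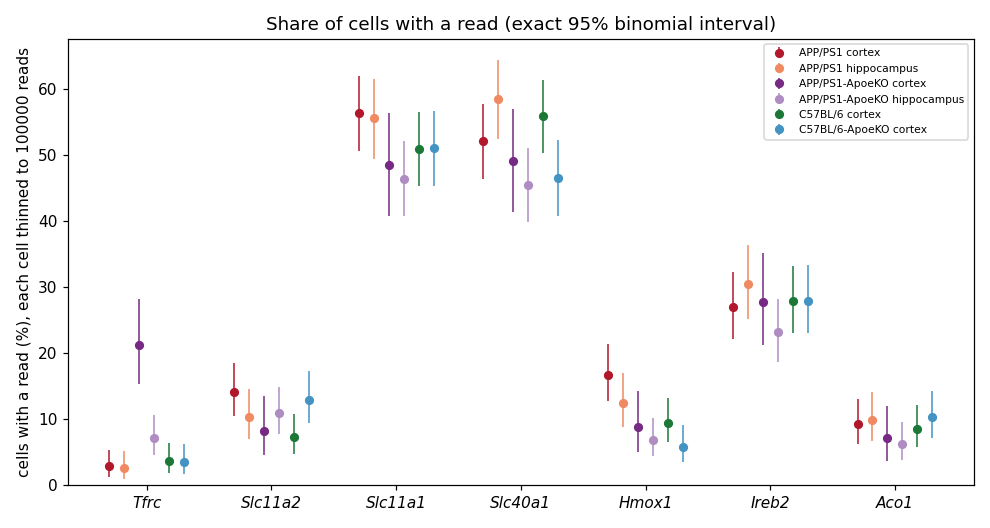
Share of cells with a read (%) after each cell was thinned to 100000 reads, for the 7 genes not read in nearly every cell; colours are groups and bars exact 95% binomial intervals for counting error. Hmox1 ranges from 16.7% in APP/PS1 cortex to 5.84% in C57BL/6-ApoeKO cortex, and Tfrc stands at 21.3% in APP/PS1-ApoeKO cortex.

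Ireb2, which encodes iron regulatory protein 2, was at 63.5 RPM in C57BL/6, 49.4 RPM in C57BL/6-ApoeKO, 48.5 RPM in APP/PS1 hippocampus, 44.1 RPM in APP/PS1-ApoeKO cortex, 35.3 RPM in APP/PS1 cortex, and lowest in APP/PS1-ApoeKO hippocampus at 31.4 RPM. APP/PS1 cortex (41.3 and 30 RPM by lane) lay below C57BL/6 (65.3 and 61.8 RPM), a ratio of 0.557 (0.541 to 0.573), just short of 2-fold. It passed 2-fold with each cell weighted alike. By plate number of the labels, levels overlapped, at 22.2 to 54.9 RPM in APP/PS1 cortex and 32.6 to 98.9 RPM in C57BL/6. The lanes of APP/PS1 hippocampus were further apart than most of these groups, so the order among the middle groups does not exceed lane spread.

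Aco1, whose product is iron regulatory protein 1 or, with an iron-sulphur cluster, cytosolic aconitase, was at 49.4 RPM in C57BL/6-ApoeKO, 35.5 RPM in APP/PS1-ApoeKO hippocampus, 34.6 RPM in C57BL/6, 28.9 RPM in APP/PS1 hippocampus, 26.5 RPM in APP/PS1 cortex, and lowest in APP/PS1-ApoeKO cortex at 18.0 RPM. For amyloid without Apoe it was 2.74-fold lower (2.59 to 2.90), and the lanes of C57BL/6-ApoeKO were at 63.1 and 36.1 RPM. In APP/PS1-ApoeKO cortex 14 cells had reads and 3 of them held 75.9%. Lane 33 stood at 23.1 RPM. The log2 ratio of -1.43 ran from -4.07 to -0.70 when plate numbers of the labels were left out in turn, with both ends set by plate numbers of APP/PS1-ApoeKO cortex. The difference was no longer counted as 2-fold apart without plate number 3 of that group, or without plate number 2 or 3 of C57BL/6-ApoeKO.

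Counted over comparisons, the 9 genes gave few differences of 2-fold. For Apoe loss in amyloid cortex, 1 gene was apart (Tfrc, higher) of the 9 that passed the filter, where 11.8% of all genes were. In hippocampus 1 of 8 was apart (Hmox1, 2.16-fold lower), where 6.99% were. There the 16.2-fold Tfrc difference was not counted, since 7.79% of cells had reads. Without amyloid 0 of 7 were apart, where 4.57% were. For amyloid with Apoe 0 of 8 were apart, where 6.24% were, and without Apoe 2 of 8 (Tfrc higher, Aco1 lower), where 5.86% were. Hippocampus against cortex gave 0 of 8 in APP/PS1, where 2.44% were, and 1 of 7 in APP/PS1-ApoeKO (Tfrc, 3.88-fold lower), where 5.85% were.

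The counts are too small to set apart from those shares. With rows B to G alone, 0 of the 9 genes were apart for Apoe loss in amyloid cortex, 0 in hippocampus, 1 (Aco1) for amyloid without Apoe and 0 for hippocampus against cortex in APP/PS1-ApoeKO. The median log2 ratio of the 9 genes was -0.02 for Apoe loss in amyloid cortex, -0.18 in hippocampus and 0.05 without amyloid, beside 0.18, 0.05 and 0.02 over all genes that passed. It was -0.01 and 0.17 for amyloid with and without Apoe, beside -0.11 and 0.06, and 0.12 and -0.28 for hippocampus against cortex in APP/PS1 and APP/PS1-ApoeKO, beside 0.01 and -0.12. Comparisons that share a group share its cells, so their values are not independent.

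**Figure D5:**
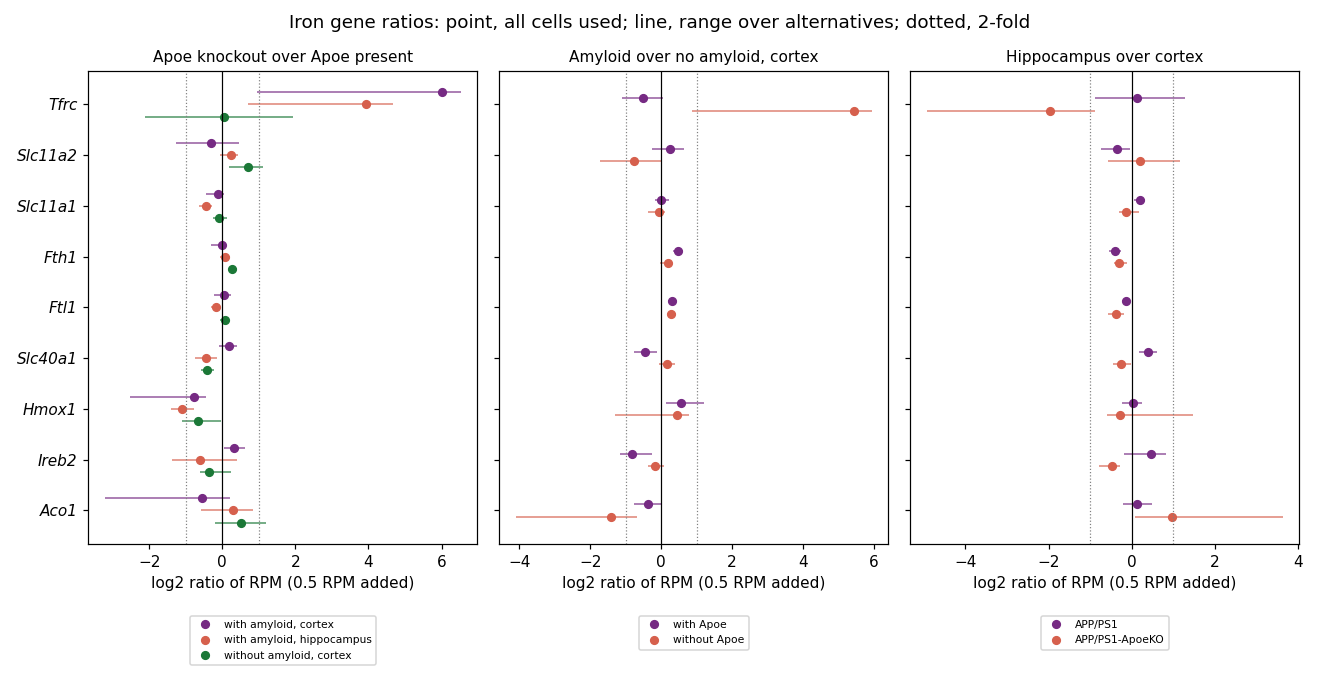
Log2 ratio of RPM (0.5 RPM added) of the 9 genes for Apoe loss (left), amyloid (middle) and hippocampus against cortex (right); the point uses all cells, the line spans the alternatives tried, and dotted lines mark 2-fold. The Tfrc lines for Apoe loss with amyloid reach from 6.50 down to 0.97 in cortex and from 4.64 down to 0.72 in hippocampus, and Fth1 and Ftl1 stay within 2-fold in every setting.

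Of 46 other iron genes listed by role, 41 were in the table and between 22 and 24 passed the filter in a comparison. At most 1 was 2-fold apart in each, where 2.44% to 11.8% of all genes were, so these counts are not set apart from that share. Keap1, the sensor that holds back the oxidative stress response, was 2.12-fold higher with Apoe loss in amyloid cortex. Pcbp1, an iron chaperone that loads ferritin, was 2.08-fold lower with Apoe loss in hippocampus, at 127.8 against 266.4 RPM. Blvrb, a reductase of the haem breakdown path, was 2.19-fold higher with Apoe loss without amyloid, at 82.7 against 37.8 RPM. Nfs1, which supplies sulphur for iron-sulphur clusters, was 2.35-fold higher for amyloid without Apoe, and Blvra, the other biliverdin reductase, 2.36-fold higher in hippocampus than in cortex of APP/PS1-ApoeKO. None was apart for amyloid with Apoe or between the APP/PS1 tissues.

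The uptake genes of that list that passed were within 2-fold. Trf, transferrin itself, was at 72.9 and 70.2 RPM in APP/PS1 cortex and hippocampus, 113.5 and 110.1 RPM in the same tissues of APP/PS1-ApoeKO, and 87 and 101.3 RPM in C57BL/6 and C57BL/6-ApoeKO. Lrp1, a scavenger receptor for haem-hemopexin and also for Apoe, was at 523, 566, 773, 779, 537 and 679 RPM in that order. Both were lower in APP/PS1 than in APP/PS1-ApoeKO of the same tissue. Mcoln1, a cation channel that lets iron out of lysosomes, went the other way, at 162.8 RPM in cortex and 170.4 RPM in hippocampus of APP/PS1 against 156.5 and 112.6 RPM in APP/PS1-ApoeKO. Ncoa4, which takes ferritin to the lysosome, stood between 18.4 and 35.8 RPM over groups. Fbxl5, the ligase that marks iron regulatory protein 2 for removal, stood between 58.9 and 96.1 RPM.

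Across cells, likeness was measured as the mean over the 6 groups of the Spearman correlation of RPM within a group, against 6414 genes with reads in at least 10% of cells. It is a description, since cells of a group share lanes and plates and differ in depth. The genes closest to Fth1 were Eef1a1, a translation factor (0.34), Ftl1 (0.32) and Fau, a ribosomal protein gene (0.31). Those closest to Ftl1 were Fth1, Ctsd, a lysosomal protease (0.28), and Tyrobp, a microglial receptor adaptor (0.27). For the other genes compared the highest value was 0.13, for Slc11a1 with Ctsz, which in sparse reads is no finding, and Tfrc had reads in too few cells to enter.

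Ftl1 correlated with the summed level of a list of genes of plaque-associated microglia, with the 9 iron genes left out. The list holds Ctsd and Tyrobp, so this is not separate from the likeness of Ftl1 to those genes. The value was 0.58 in APP/PS1 cortex, 0.55 in APP/PS1 hippocampus, 0.13 in APP/PS1-ApoeKO cortex, 0.27 in APP/PS1-ApoeKO hippocampus and 0.28 in both C57BL/6 groups. Fth1 followed with 0.40, 0.45, 0.18, 0.20, 0.23 and 0.13 in the same order of groups. The list itself summed to 24175 RPM in APP/PS1 cortex, 20338 RPM in APP/PS1 hippocampus, 17864 and 18357 RPM in APP/PS1-ApoeKO cortex and hippocampus, and 14480 and 17185 RPM in C57BL/6 and C57BL/6-ApoeKO. It moved with Ftl1 and Fth1 between APP/PS1 and C57BL/6 cortex. By RPM it did not between APP/PS1-ApoeKO cortex, with lane 34 only, and APP/PS1 cortex. There the list was lower without Apoe, with Ftl1 at 523 against 504 RPM and Fth1 at 2066 against 2091 RPM. Over settings the log2 ratio ran from -0.20 to 0.21 for Ftl1 and from -0.27 to 0.08 for Fth1. The sign held in 14 of 18 settings for each, so the direction of the chains there depends on the scaling and cells used. The part of the list in the ferritin levels was not tested.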

How the data were processed

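The members and lists were chosen with earlier results of these data known. Raw read counts per gene and cell were used as the authors deposited them. The submitters' processing notes name STAR 2.5.2, featureCounts 1.5.1, Seurat 2.3.1 and build mm10, with no roles. Strand and the handling of shared reads are not given in the sources used here. Of 1878 cells with counts, the 1713 whose labelled reads and genes equal the table's were used. Each column of the table is 1 well and was matched to its sample by its exact title. The labels name no animals, so the wells of a group were pooled as 1 sample and no model was fitted. The deposited counts were summed by group and scaled to 1000000 reads a group (RPM). Ratios carry exact 95% conditional binomial intervals, and shares exact (Clopper-Pearson) ones. These and the floor of 3 reads cover counting error only.

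The genes named are the 9 members, listed iron genes 2-fold apart, and the genes closest to each member in Spearman correlation. Others were chosen after values were seen: Trf, Lrp1, Mcoln1, Ncoa4, Fbxl5, Tfr2 and Fnip1. Alternatives were TMM factors (edgeR 4.0.16) and DESeq2 1.42.0 size factors on the deposited counts, totals without ribosomal RNA, mitochondrial genes and spike-ins, mean RPM of cells, thinning to 100000 reads (8 cells too shallow), lane 33 added or alone, the top cell left out, single lanes, plate numbers left out, no low-value filter, and 0.1 or 1 RPM added. Rows B to G alone were added after seeing the data. Calls were tested on simulated group sums that held counting error only, with every gene set as read in all cells. The filter on the share of cells, and uneven reads of single cells, were therefore not tested. Python 3.11.15, pandas 2.3.3, scipy 1.17.1 and GENCODE M21 were used. Plate numbers of the labels spread the wells of a titled plate over several parts. 1 microglial marker of the list is not reported here.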

Additional observations from a re-analysis of the deposited data

Results flagged for a closer look

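The APP/PS1-ApoeKO cortex cells of lane 33, whose labels give no depth and which the 7 comparisons of groups did not use, held Tfrc at 495 RPM. The highest lane of the C57BL/6 cortex controls, which differ in both amyloid and Apoe, stood at 19.7 RPM, and that of C57BL/6-ApoeKO cortex at 20.2 RPM. The lane 33 reads lay mostly in outer wells. Row A of titled plate 1 and row H of titled plate 2 stood at 3102 RPM together, and the lane's other wells at 74.1 RPM.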

How the results depend on the processing

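No paired analysis was possible because the labels name no animals, the plate numbers pair no samples, and the ratios come from no test. No ratio that was 2-fold apart turned its sign (0 of the values under alternatives). Counts of the 9 genes 2-fold apart moved as follows, and the cause was not tested. For Apoe loss in amyloid cortex (1), TMM factors, lane 33 added and lane 33 alone each gave 2 (Tfrc and Hmox1), and rows B to G gave 0. In hippocampus (1), mean RPM of cells and thinning gave 0, the second lanes and no filter gave 2, and rows B to G gave 0. Without amyloid (0), the first lanes gave 1 (Aco1) and the second lanes 1 (Slc11a2). For amyloid with Apoe (0), mean RPM of cells, thinning and the second lanes gave 1 (Ireb2). For amyloid without Apoe (2), rows B to G gave 1. For hippocampus against cortex in APP/PS1-ApoeKO (1), rows B to G gave 0. Leaving out 1 plate number at a time gave 1 to 3 for Apoe loss in amyloid cortex, 0 to 1 in hippocampus, 0 to 1 without amyloid, 0 to 2 for amyloid with Apoe, 1 to 2 for amyloid without Apoe, 1 to 2 for hippocampus against cortex in APP/PS1-ApoeKO and 0 to 2 between the lanes of APP/PS1-ApoeKO cortex. Lane pairs could not be made for comparisons with APP/PS1-ApoeKO cortex, which has 1 lane with labelled depth. Scaling moved all genes: in amyloid cortex the median log2 ratio for Apoe loss was 0.18 by RPM, -0.08 by TMM factors and -0.03 by DESeq2 size factors, and the share of 2-fold genes that were higher was 74.6%, 45.5% and 50.3%. For amyloid with Apoe that share was 37.2% and 52.9%, without Apoe 62.1% and 45.1%, and for hippocampus against cortex in APP/PS1-ApoeKO 32.8% and 59.9%, by RPM and TMM.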

Other observations

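Single cells far above their group's median were seen for ferritin as well. One of the 42 APP/PS1-ApoeKO cortex wells with Tfrc reads reached 13348 RPM of Ftl1, against a median of 391 RPM in those wells and a highest value of 3089 RPM in rows B to G. One cell of the other wells of rows A and H reached 16362 RPM of Fth1, against 7136 RPM for the highest cell of rows B to G. These are values of single wells, with no test.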
